A study of Mus musculus with 17 samples.

Results

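The 10 genes described here are those of liver X receptor alpha (LXRα) and cholesterol efflux: the receptor genes Nr1h3, Nr1h2 and Rxra, and the LXR target genes Abca1, Abcg1, Mylip, Apoe, Apoc1, Pltp and Lpcat3. They were taken from the tables by symbol, and all 10 were found among the 25124 genes that each deposited table lists. RNA-seq had been performed on sorted mouse Kupffer cells (KCs), the resident macrophages of liver sinusoids. TIM4+CD206+ KCs and TIM4+CD206high KCs (Tim4+CD206hi in the labels) were each sorted as 3 untreated, tumour-free samples and 3 tumour-bearing samples, taken 2 weeks after injection of KPC cells, a pancreatic adenocarcinoma line, through the portal vein. KCs of untreated, tumour-free mice were sorted from 3 Id3f/f controls, which carry the floxed alleles without Cre, and from 2 Clec4fCreId3f/f mice, in which Cre is driven by the KC gene Clec4f. The KC labels therefore rest on sorting by TIM4 and CD206 in the tumour experiment, and deletion of Id3 is limited to cells that have expressed Clec4f. Ages were not given in the sources used here. The labels do not tie samples to single mice, so p-values measure the spread between samples.

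LXRα, encoded by Nr1h3, and LXRβ, encoded by Nr1h2, are nuclear receptors that bind oxysterols and the cholesterol precursor desmosterol, pair with a retinoid X receptor such as RXRα (Rxra), and bind DNA at 2 direct repeats spaced by 4 bases, the DR4 element. When activated, they raise the transcription of genes that move cholesterol out of the cell onto lipoproteins and that limit its uptake. LXRα is known as a factor of KC identity. Id3, deleted in 1 of the experiments, encodes a protein that binds E proteins and keeps them from their DNA motif, the E-box CANNTG.

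Promoter windows of RefSeq, built on GRCm38.p6 and running from 250 bases before to 50 bases after a transcription start site, were matched for 8 of the 10 genes, with 12 windows in all. Abcg1 and Apoc1 had none. A window is given for Nr1h3, as the receptor of the set, for Apoe, its most abundant gene, and for Abca1, the cholesterol exporter. Each runs 5′ to 3′ on the strand of the gene. Capitals mark an E-box (CANNTG) or a match to DR4 (AGGTCA, any 4 bases and AGGTCA again, either strand, at most 3 of these 12 letters different).
Nr1h3, chr2:91195067-91195366, minus strand: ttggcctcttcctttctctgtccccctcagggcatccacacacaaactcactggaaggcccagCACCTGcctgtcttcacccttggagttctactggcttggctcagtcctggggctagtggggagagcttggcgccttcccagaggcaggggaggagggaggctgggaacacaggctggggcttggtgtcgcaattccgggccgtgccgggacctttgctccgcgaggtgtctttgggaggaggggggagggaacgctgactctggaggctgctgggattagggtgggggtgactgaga
Apoe, chr7:19699139-19699438, minus strand: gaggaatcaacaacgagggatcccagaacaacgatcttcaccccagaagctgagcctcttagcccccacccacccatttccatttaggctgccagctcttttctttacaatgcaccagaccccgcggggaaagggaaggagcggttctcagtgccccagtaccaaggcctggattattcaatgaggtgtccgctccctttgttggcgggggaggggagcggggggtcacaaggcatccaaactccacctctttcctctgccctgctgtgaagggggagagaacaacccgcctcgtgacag
Abca1, chr4:53159846-53160145, minus strand: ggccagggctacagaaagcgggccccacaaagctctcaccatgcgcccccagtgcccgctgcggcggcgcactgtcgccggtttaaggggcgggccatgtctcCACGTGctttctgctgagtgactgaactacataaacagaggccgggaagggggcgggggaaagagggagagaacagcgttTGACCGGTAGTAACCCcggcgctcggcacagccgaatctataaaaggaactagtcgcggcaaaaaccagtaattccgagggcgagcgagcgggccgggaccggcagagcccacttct
The Nr1h3 window shown holds the E-box CACCTG at −187 from the start site, while its other window, not shown, holds no match. The Abca1 window holds the E-box CACGTG at −147 and, at −67, a DR4 match whose reverse strand reads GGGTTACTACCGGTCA, with 3 letters different. The Apoe window shown holds neither, while another of its 3 windows holds CAGGTG at −212. Of the 8 genes, 7 had an E-box in a window and 2, Abca1 and Rxra, had a DR4 match. A gene with several windows was counted if any held a match, so these counts are not directly comparable with shares per window. Among all 32851 windows, 72.3% held an E-box and 21.88% a DR4 match at this allowance. These letters are therefore common in windows of this length, and a match describes the letters only.

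The deposited values are on a log2 scale, normalized across the samples of each of the 3 tables separately, so levels in different tables are given side by side and were not tested against each other. They hold no counts, so the depth of a sample is unknown. All 14 KC markers were measured above the filter in every table. Markers of other cells moved with tumour in both subsets. The summed log2 level of 12 epithelial tumour markers was 10.9 to 11.8 in tumour-free and 15.4 to 15.6 in tumour-bearing TIM4+CD206+ samples, and 10.9 to 11.4 against 15.8 in TIM4+CD206high samples, and all 11 that were tested rose in both. Of 14 hepatocyte markers 6 fell in TIM4+CD206+ KCs, with a median difference of −1.31, and 7 fell and 1 rose in TIM4+CD206high KCs, with a median of −1.42. Their summed level, most of which is Trf, was 17.29 to 17.49 against 16.63 to 16.98 and 16.68 to 17.003 against 16.43 to 16.67. That of 8 monocyte markers was 13.77 to 15.02 against 15.35 to 15.50 and 14.51 to 14.67 against 15.40 to 15.49, with 4 and 3 that rose. That of 9 neutrophil markers was 13.53 to 14.14 against 15.14 to 15.24 and 12.97 to 13.67 against 14.22 to 14.81, with 4 that rose in each. Of the B cell markers tested, 3 of 4 and 2 of 5 fell. The 14 KC markers summed to 21.30 to 21.87 against 20.98 to 21.09 in TIM4+CD206+ KCs, with lower values in tumour for 13 of 14 and 3 that fell, Timd4, Adgre1 and Csf1r. In TIM4+CD206high KCs they summed to 20.35 to 20.82 against 20.16 to 20.33, with 12 of 14 lower and 0 called. The 12 endothelial markers summed there to 17.9 to 18.5 against 17.2 to 17.5, with all 12 lower and 5 that fell. In TIM4+CD206+ KCs they summed to 14.2 to 15.2 against 13.8 to 14.2, with 11 lower and 0 called. Of 8 stellate cell markers, 0 fell in TIM4+CD206+ and 3 in TIM4+CD206high KCs. Of 8 T or NK cell markers, 8 and 7 were lower, with 0 called in each. The part of these cells in any difference below was not tested, and in bulk samples fewer cells of a type cannot be told apart from less RNA per cell.

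The Id3 samples were checked against their labels. Id3 itself was at 12.58, 12.46 and 12.82 in Id3f/f KCs and at 9.83 and 9.82 in Clec4fCreId3f/f KCs, a difference of −2.80. The genotypes were also separated by sex-linked genes: Xist was at 6.33 to 6.38 against 9.76 and 9.84, and Eif2s3y, on the Y chromosome, at 8.44 to 9.12 against 6.95 in both. Sex and genotype cannot be told apart in this experiment, for Apoe, Apoc1 and Abcg1 as for all other genes.

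One library stood apart. Tumour-free TIM4+CD206high sample 3 had values that fell with GC content, by 0.49 on the log2 scale per 10 percentage points, while the slope in the other 16 samples lay between −0.17 and 0.15. It was this sample in which Apoe, Nr1h2, Pltp and Mylip were lowest. The transcripts of Nr1h2, Apoe, Pltp and Mylip have a GC content of 60.6%, 59.5%, 57.8% and 49.6%. With trends of GC content and length removed, the value of sample 3 was 11.05 for Nr1h2, 16.30 for Apoe, 15.26 for Pltp and 11.19 for Mylip. Samples 1 and 2 of the group were then at 12.19 and 11.94 for Nr1h2, 17.91 and 19.35 for Apoe, 15.68 and 15.29 for Pltp and 12.13 and 12.25 for Mylip. Sample 3 thus stayed apart for Nr1h2 and Mylip, and for Pltp it came close to sample 2. For Apoe it stayed the lowest, but samples 1 and 2 also lay far apart.

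Per kilobase of transcript, the set had the same 4 leading genes in the same order of mean level in all 6 groups: Apoe, which encodes the lipoprotein ligand apolipoprotein E, then Apoc1, Pltp and Nr1h3. The other 6 lay well below, with group means from 8.13 to 11.23 on the log2 scale per kilobase, against 13.18 to 14.97 for Nr1h3. In Id3f/f KCs the full order was Apoe, Apoc1, Pltp, Nr1h3, Nr1h2, Lpcat3, Rxra, Abcg1, Mylip and Abca1, in which Abcg1, Mylip and Abca1 overlapped with their neighbours and the others did not. In tumour-free TIM4+CD206+ KCs, Apoe overlapped with Apoc1, Nr1h2 with Lpcat3, Lpcat3 with Rxra, Rxra with Abcg1 and Abca1 with Mylip. In tumour-free TIM4+CD206high KCs Apoe also overlapped with Apoc1, and each of the lower 6 genes, from Abcg1 to Abca1, overlapped with the next. Apoe ranked first per kilobase of 12653 genes in each of the 5 samples of the Id3 experiment, and between 1 and 50 of 14334 in the TIM4+CD206high samples. It alone held 2.83% to 4.26% of the summed linear values of a sample in the Id3 experiment, 0.14% to 2.30% in tumour-free and 1.52% to 2.12% in tumour-bearing TIM4+CD206high KCs, and 0.37% to 3.19% and 0.70% to 2.28% in the matching TIM4+CD206+ groups.

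**Figure D1:**
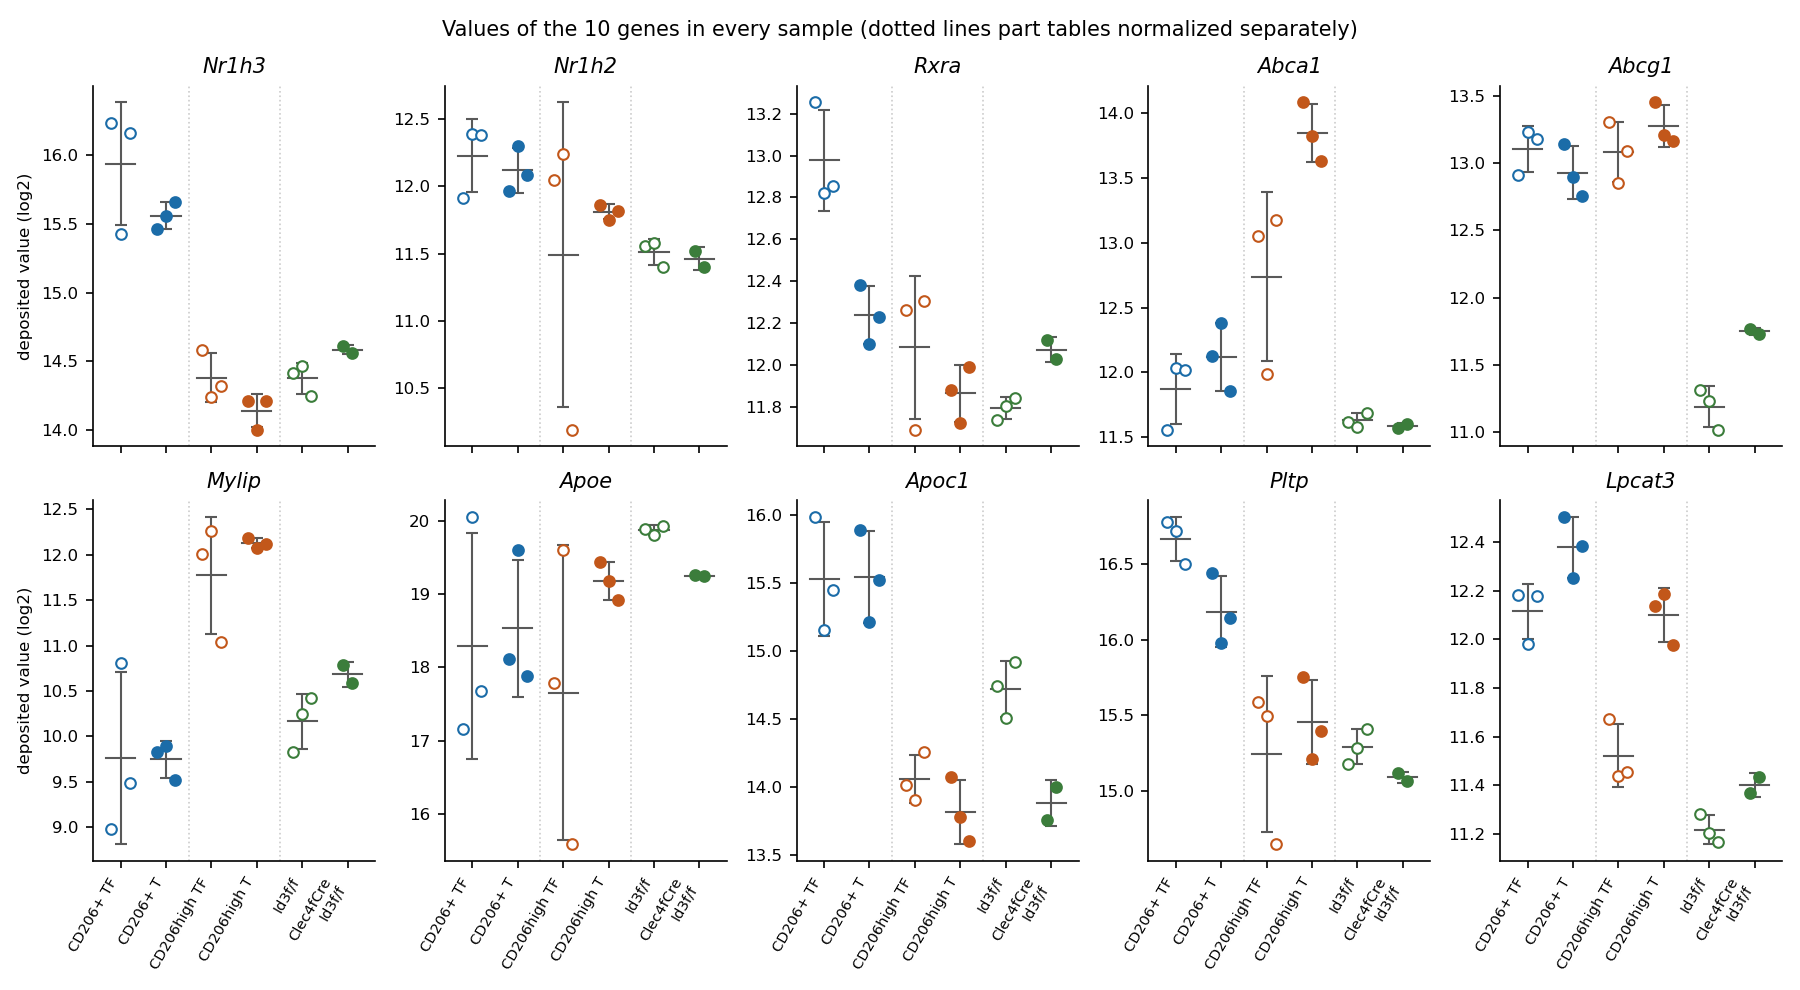
Deposited log2 value (y axis) of each of the 10 genes in each of the 17 samples. TF is tumour-free and T tumour-bearing, and open points are controls and filled points tumour-bearing or Clec4fCreId3f/f samples. Grey bars give the mean and SD of a group, with n = 3 except for 2 Clec4fCreId3f/f samples. Dotted lines part tables that were normalized separately. Apoe spans 15.59 to 19.60 among tumour-free TIM4+CD206high samples and 19.80 to 19.93 among Id3f/f samples.

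Across all genes tested with limma, no member passed an adjusted p of 0.05 with tumour in either subset, and 3 of 10 did with Id3 deletion. In TIM4+CD206+ KCs, 0 of 10 were called, where 3.54% of all 13233 genes tested were (2.55% higher and 0.998% lower), and 2 of 10, Rxra and Pltp, had an unadjusted p under 0.05, where 17.2% of all genes did. With the replicate number as a block, 1026 genes and 1 member, Rxra, were called in place of 469 and 0. Samples of the same number in the 2 groups deviated together in these same values, but the labels do not state that they were paired. Without tumour-free sample 2 the calls were 427 higher and 595 lower, so that 41.8% were higher in place of 71.9%. In TIM4+CD206high KCs, 0 of 10 were called, where 7.23% of 14561 genes were (5.21% higher and 2.03% lower), and 2 of 10, Abca1 and Lpcat3, had an unadjusted p under 0.05, where 21.1% did. With Id3 deletion Abcg1 rose and Apoe and Apoc1 fell, where 6.44% of 12833 genes tested were called (3.08% higher and 3.37% lower), and 7 of 10 had an unadjusted p under 0.05, where 23.6% did. All 10 genes passed the filter on low values in every table, and the lowest group mean was 9.75, of Mylip. The median difference of the 10 genes was −0.06, 0.27 and 0.07 on the log2 scale in the 3 comparisons, against 0.02, 0.03 and 0.00 over all genes tested. Whether the 2 subsets differed in their response to tumour was not tested.

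**Figure D2:**
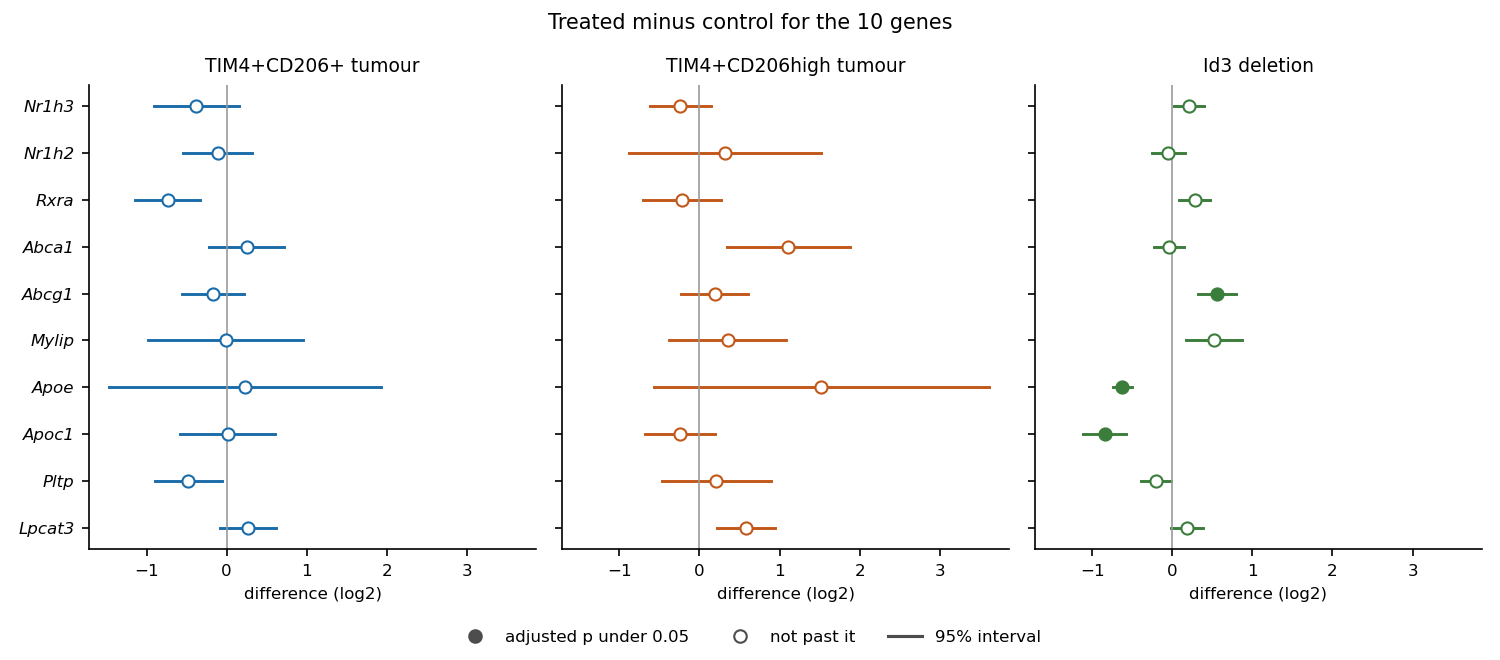
Difference between the group means of each of the 10 genes on the log2 scale (x axis), tumour-bearing minus tumour-free in each KC subset and Clec4fCreId3f/f minus Id3f/f, with 95% intervals from limma. Filled points have an adjusted p under 0.05: Abcg1 at 0.56, Apoe at −0.62 and Apoc1 at −0.84 with Id3 deletion.

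Of the receptor genes, Nr1h3 stood highest per kilobase in every group and passed the threshold in no comparison, apart from the alternatives named here. Nr1h3 (chr2:91184061-91202829 in GRCm38, minus strand), which shares 34 exon bases with the predicted gene Gm13783, had values of 16.23, 15.42 and 16.16 in tumour-free TIM4+CD206+ KCs and of 15.46, 15.56 and 15.66 in tumour-bearing ones. Tumour-free sample 2 was the lowest of the 6 and the groups overlapped, with means of 15.94 ± 0.44 and 15.56 ± 0.10 (SD, n = 3 each). The difference was −0.38 ± 0.23 (SE), with an adjusted p of 0.475 (limma). Without that sample it was −0.63 and passed the threshold. The TIM4+CD206high values were 14.58, 14.24 and 14.32 in tumour-free and 14.21, 14.00 and 14.22 in tumour-bearing samples. All tumour-bearing values lay just below all tumour-free values, with a difference of −0.24 ± 0.16 (SE, adjusted p = 0.432 in limma). With trends of GC content and length removed the difference was −0.58, was not called, and the groups overlapped. With Id3 deletion Nr1h3 was 14.42, 14.46 and 14.25 in Id3f/f and 14.61 and 14.56 in Clec4fCreId3f/f KCs. The groups did not overlap, and the difference of 0.21 ± 0.08 (SE) did not pass the threshold (adjusted p = 0.167 in limma). After quantile normalization it was 0.31 and passed (adjusted p = 0.0418, within 0.0418 to 0.647 over the alternatives).

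Nr1h2 (chr7:44549616-44553968, minus strand) stood at 11.91, 12.39 and 12.39 in tumour-free and 11.97, 12.30 and 12.08 in tumour-bearing TIM4+CD206+ KCs, and at 11.55, 11.57 and 11.40 in Id3f/f against 11.52 and 11.40 in Clec4fCreId3f/f KCs. Its groups overlapped in all 3 comparisons, and it differed by −0.11 with tumour in TIM4+CD206+ KCs, 0.32 in TIM4+CD206high KCs and −0.05 with Id3 deletion (adjusted p = 0.846, 0.731 and 0.818 in limma). The interval in TIM4+CD206high KCs was wide, from −0.87 to 1.51, and tumour-free sample 3 stood at 10.19 there, with samples 1 and 2 at 12.05 and 12.24 and the tumour-bearing samples at 11.86, 11.75 and 11.82. Without sample 3 the difference was −0.33. Per kilobase, Nr1h3 exceeded Nr1h2 in all 17 samples. The ratio, from the mean log2 difference, was 13.4 in tumour-free and 11.1 in tumour-bearing TIM4+CD206+ KCs, with ranges of 8.40 to 20.3 and 9.76 to 12.2. In TIM4+CD206high KCs it was 7.57 in tumour-free and 5.15 in tumour-bearing samples. The ranges there were 4.085 to 17.9 and 4.87 to 5.38, so that the tumour-free samples surrounded the tumour-bearing ones. The ratio was 7.46 in Id3f/f KCs and 8.91 in Clec4fCreId3f/f KCs. Of these, the 2 Clec4fCreId3f/f samples, at 8.70 and 9.13, lay above the 3 controls, at 7.37 to 7.58.

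Rxra (chr2:27676445-27763319, plus strand), the shared partner of both LXRs and of other nuclear receptors, had values of 13.25, 12.82 and 12.86 in tumour-free TIM4+CD206+ KCs and of 12.38, 12.10 and 12.23 in tumour-bearing ones. Every tumour-bearing sample lay below every tumour-free sample. The difference was −0.74 ± 0.17 (SE, 95% interval −1.14 to −0.34), 1.67-fold lower, and narrowly missed the threshold (adjusted p = 0.0628 in limma). With the replicate block the adjusted p was 0.0160, within a range of 0.0160 to 0.212 over all alternatives tried. Rxra also passed after quantile normalization and without tumour-free sample 2, where the difference was −0.82. Values in TIM4+CD206high KCs were 12.26, 11.69 and 12.30 against 11.88, 11.72 and 11.99, which overlapped, with a difference of −0.22 ± 0.21 (SE, adjusted p = 0.557 in limma). With trends of GC content and length removed it was −0.63 and was not called. With Id3 deletion they were 11.74, 11.81 and 11.84 against 12.12 and 12.03, a difference in the other direction of 0.28 ± 0.08 (SE) that did not pass the threshold (adjusted p = 0.0833 in limma).

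Of the target genes, Abca1, Abcg1 and Mylip encode proteins that export cholesterol or limit its uptake. ABCA1 moves cholesterol and phospholipid onto lipid-poor apolipoprotein A-I, ABCG1 passes it on to formed high-density lipoprotein, and MYLIP, also called IDOL, is a ubiquitin ligase that marks the low-density lipoprotein receptor for degradation. Abca1 (chr4:53030789-53159988, minus strand), whose promoter window is given above, had values of 13.05, 11.99 and 13.17 in tumour-free TIM4+CD206high KCs and of 14.09, 13.83 and 13.64 in tumour-bearing ones. All tumour-bearing samples lay above all tumour-free samples, of which sample 2 was the lowest. The difference was 1.11 ± 0.33 (SE, 95% interval 0.35 to 1.88), 2.16-fold higher, with an adjusted p of 0.0998 (limma). It was 0.74 without tumour-free sample 2 and then passed the threshold, as it did at 1.24 after quantile normalization. In TIM4+CD206+ KCs the values were 11.56, 12.03 and 12.01 against 12.12, 12.38 and 11.85, which overlapped, with a difference of 0.25 ± 0.20 (SE, adjusted p = 0.612 in limma). With Id3 deletion Abca1 ran from 11.58 to 11.69 in the controls and stood at 11.57 and 11.60 in Clec4fCreId3f/f KCs, a difference of −0.04 with an interval of −0.23 to 0.15.

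Abcg1 (chr17:31057694-31117984, plus strand) was the one of the 2 exporters in the set that changed with Id3 deletion. Its values were 11.32, 11.23 and 11.02 in Id3f/f KCs and 11.76 and 11.73 in Clec4fCreId3f/f KCs, so that the groups did not overlap. It rose by 0.56 ± 0.10 (SE, 95% interval 0.33 to 0.79), 1.47-fold, with an adjusted p of 0.0172 (limma). Without either Clec4fCreId3f/f sample, where 1 sample stood against 3, the difference was 0.54 or 0.58 and was not called. With tumour, Abcg1 ranged from 12.75 to 13.45 over both subsets and its groups overlapped in each. The differences were −0.18 ± 0.17 in TIM4+CD206+ and 0.19 ± 0.18 in TIM4+CD206high KCs (SE; adjusted p = 0.680 and 0.548 in limma). The interval in TIM4+CD206high KCs reached from −0.23 to 0.61.

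Mylip (chr13:45389742-45411940, plus strand) had the lowest level of the set in TIM4+CD206+ KCs, with values of 8.97, 10.81 and 9.49 in tumour-free and 9.83, 9.90 and 9.51 in tumour-bearing samples. Tumour-free sample 2 was the highest and sample 1 the lowest of all 6. The difference was −0.01 with an interval of −0.98 to 0.96, and 0.51 without sample 2. Mylip in TIM4+CD206high KCs stood at 12.01, 12.26 and 11.04 against 12.18, 12.08 and 12.12, a difference of 0.35 ± 0.31 (SE, adjusted p = 0.529 in limma), which was −0.013 without tumour-free sample 3. With Id3 deletion the values were 9.83, 10.24 and 10.42 against 10.78 and 10.58. Both Clec4fCreId3f/f values lay above the controls, and the difference of 0.52 ± 0.16 (SE) missed the threshold (adjusted p = 0.082 in limma).

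Apoe, Apoc1 and Pltp encode proteins that act on lipoproteins outside the cell. Apoe (chr7:19696244-19701310, minus strand) and Apoc1 (chr7:19689480-19692659, minus strand) are neighbours on one strand with 3584 bases between them. Apolipoprotein C-I, encoded by Apoc1, is a small exchangeable protein of lipoproteins that interferes with their uptake, and both genes are also expressed by hepatocytes. In Id3f/f KCs Apoe was at 19.88, 19.80 and 19.93 and in Clec4fCreId3f/f KCs at 19.25 and 19.24. The groups were well apart, and replicates differed by at most 0.13. Apoe fell by 0.62 ± 0.05 on the log2 scale (SE, 95% interval −0.74 to −0.50), 1.54-fold lower, with an adjusted p of 0.00068 (limma).

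Apoc1 stood at 14.74, 14.51 and 14.92 in Id3f/f KCs and at 13.76 and 14.00 in Clec4fCreId3f/f KCs, again without overlap. It fell by 0.84 ± 0.12 on the log2 scale (SE, 95% interval −1.11 to −0.57), 1.79-fold lower, with an adjusted p of 0.0062 (limma). Without either Clec4fCreId3f/f sample the differences were −0.63 or −0.62 for Apoe and −0.72 or −0.96 for Apoc1, and neither was called. After quantile normalization the Apoe difference was 0.00, because Apoe had the highest value of all genes in each of the 5 samples and was then given the same value in each, while Apoc1 stayed called. The summed level of 14 hepatocyte markers was 16.2 to 16.6 in Id3f/f and 16.2 to 16.3 in Clec4fCreId3f/f KCs, while 9 of 14 were higher after deletion, with a median difference of 0.10, and 1 rose, Cyp3a11 by 0.81. The summed level of 8 monocyte markers was 13.67 to 13.94 against 13.02 to 13.11, most of which is Plac8, which fell by 0.95, while 4 of the 7 tested were higher, with a median of 0.09. Of the 14 KC markers, 3 rose and 5 fell, among which Clec4f, the gene that drives Cre, fell by 1.52.

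In the tumour experiment, by contrast, Apoe differed more between samples of a group than any other member did, except in tumour-bearing TIM4+CD206high KCs, where Pltp spanned 0.54 and Apoe 0.51. In tumour-free TIM4+CD206+ KCs it was at 17.16, 20.05 and 17.67 and in tumour-bearing ones at 18.11, 19.60 and 17.87. Sample 2 was the highest of both groups, and the difference was 0.23 with an interval of −1.46 to 1.93. In the same tumour-free sample 2, Mylip, Abcg1, Abca1 and Nr1h2 were also at their highest of the 3 tumour-free values. Nr1h3, Apoc1, Lpcat3 and Rxra were at their lowest, and Pltp lay between. For Abcg1, Abca1, Nr1h2 and Rxra the next value was close. In TIM4+CD206high KCs Apoe was at 17.78, 19.60 and 15.59 in tumour-free and 19.43, 19.18 and 18.92 in tumour-bearing samples. The tumour-free samples spanned 4.01 and surrounded the tumour-bearing ones. The difference was 1.52 ± 0.89 (SE, 95% interval −0.57 to 3.61, adjusted p = 0.367 in limma), and it was 2.49 and called without tumour-free sample 2 but 0.49 without sample 3.

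The SD of Apoe within groups was 1.28 for TIM4+CD206+ and 1.43 for TIM4+CD206high KCs. Among genes with a mean level of at least 10, of which there were 3815 and 5511, only 9 in each table had a larger SD than Apoe, and the median SD was 0.24 and 0.26. In the Id3 experiment the SD of Apoe was 0.05, below the median of 0.10, and 2827 of 3324 genes had a larger one. Apoc1, its neighbour, had SDs of 0.38, 0.21 and 0.19. Apoe was thus among the most variable well-expressed genes in the tumour experiment and among the less variable ones in the Id3 experiment.

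**Figure D3:**
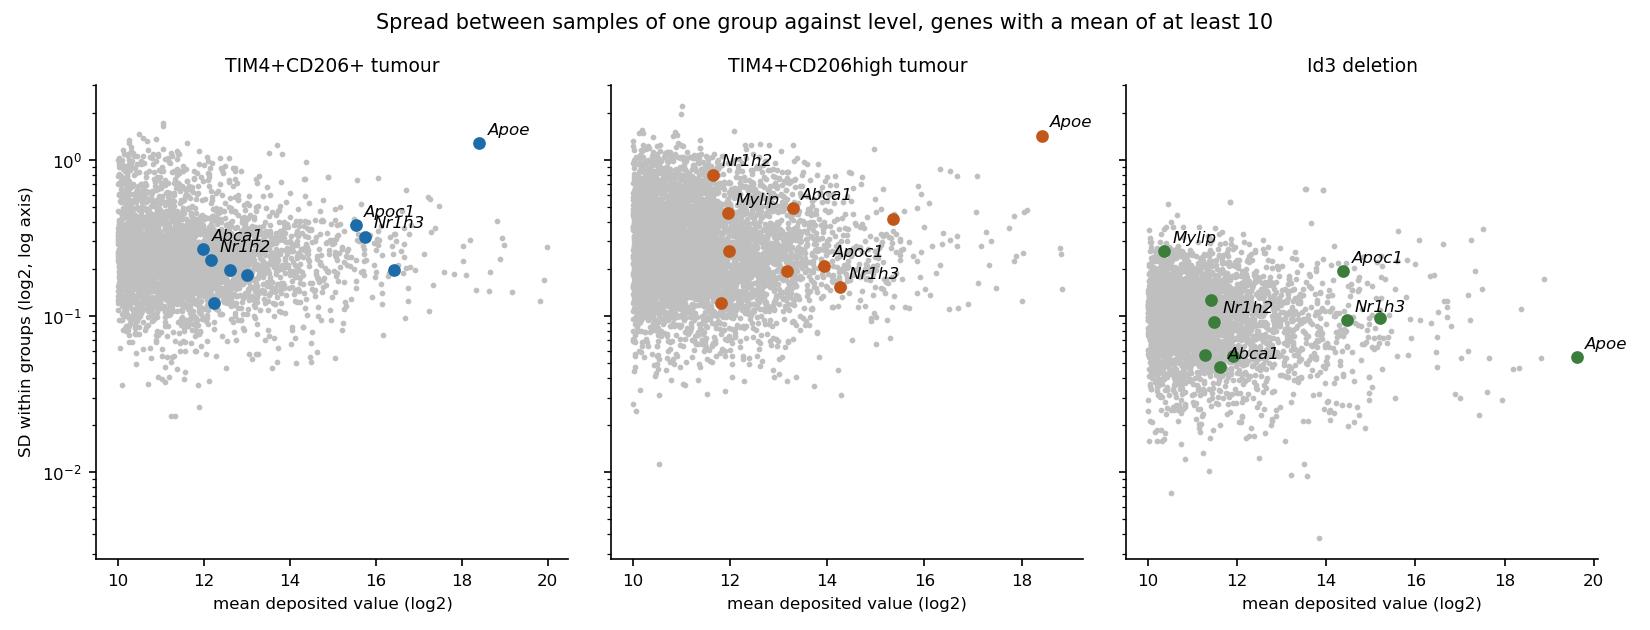
SD between samples of one group, pooled over the 2 groups of a comparison (y axis, log scale), against the mean deposited log2 value (x axis), for all genes at or above a mean of 10 (grey). Coloured points are the genes of the set at that level, 9 in TIM4+CD206+ KCs, where Mylip is below it, and 10 in the other tables. Apoe is at 1.28 and 1.43 in the tumour tables and at 0.05 in the Id3 table.

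Apoc1 did not follow Apoe in the tumour experiment. It was at 15.98, 15.15 and 15.45 in tumour-free and 15.89, 15.21 and 15.52 in tumour-bearing TIM4+CD206+ KCs, where the values of the same sample number lay close together. The difference was 0.01 with an interval of −0.58 to 0.60. Among TIM4+CD206high samples the values were 14.01, 13.90 and 14.25 against 14.07, 13.78 and 13.60, a difference of −0.24 ± 0.18 (SE, adjusted p = 0.470 in limma).

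Pltp (chr2:164839518-164857708, minus strand) encodes phospholipid transfer protein, which moves phospholipid between lipoproteins. In TIM4+CD206+ KCs its values were 16.78, 16.72 and 16.50 in tumour-free and 16.44, 15.97 and 16.14 in tumour-bearing samples. The groups did not overlap, and the difference of −0.48 ± 0.18 (SE) did not pass the threshold (adjusted p = 0.224 in limma). Those of TIM4+CD206high KCs were 15.59, 15.49 and 14.65 against 15.76, 15.21 and 15.40, with overlap and a difference of 0.21 ± 0.29 (SE, adjusted p = 0.687 in limma), which was −0.09 without tumour-free sample 3. With Id3 deletion Pltp went from 15.18, 15.28 and 15.41 to 15.12 and 15.06, a difference of −0.20 ± 0.08 (SE, adjusted p = 0.174 in limma). Of its 2562 exon bases, 495 overlap with exons of Ctsa on the other strand, and reads there cannot be told apart, since the library kit does not mark strand.

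Lpcat3 (chr6:124663094-124704716, plus strand) encodes an acyltransferase that places polyunsaturated fatty acids into phospholipids. Its values in TIM4+CD206high KCs were 11.67, 11.44 and 11.46 in tumour-free and 12.14, 12.19 and 11.98 in tumour-bearing samples. The groups did not overlap, and the difference was 0.58 ± 0.15 (SE, 95% interval 0.22 to 0.94), 1.49-fold higher, with an adjusted p of 0.074 (limma). It was 0.54 without tumour-free sample 2 and then passed the threshold. In TIM4+CD206+ KCs the values were 12.18, 11.98 and 12.18 against 12.50, 12.25 and 12.38, also without overlap, with a difference of 0.26 ± 0.15 (SE, adjusted p = 0.445 in limma). Lpcat3 was the only member that lay higher in every tumour-bearing sample in both subsets. Of all genes tested, 12.9% did so in TIM4+CD206+ and 15.6% in TIM4+CD206high KCs, and the share in both was not counted. With Id3 deletion it was at 11.28, 11.20 and 11.17 against 11.37 and 11.44, a difference of 0.18 ± 0.09 (SE, adjusted p = 0.235 in limma). It shares 334 of 3268 exon bases with Emg1 on the other strand.

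Counted over the set, groups did not overlap for 3 of 10 genes with tumour in TIM4+CD206+ KCs (Rxra and Pltp lower, Lpcat3 higher), where this held for 23.4% of all genes tested (12.9% higher and 10.5% lower). It held for 3 of 10 in TIM4+CD206high KCs (Nr1h3 lower, Abca1 and Lpcat3 higher), where it held for 30.7% (15.6% higher and 15.2% lower). With Id3 deletion it held for 8 of 10, 5 higher and 3 lower, where it held for 41.9% (20.2% higher and 21.7% lower). Only 2 samples stood against 3 there, and the cause of this high share was not tested. For the tumour comparisons the shares among the 10 genes were thus near those of all genes.

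Genes around the set were counted in 6 lists. Among 14 LXR partners and coregulators, such as the corepressor Ncor1, limma called 0 in each of the 3 comparisons. Their median differences were −0.05 and −0.03 with tumour in TIM4+CD206+ and TIM4+CD206high KCs and 0.09 with Id3 deletion, where 13 were tested, against 0.02, 0.03 and 0.00 over all genes. At an unadjusted p under 0.05 there were 1 of 14, 1 of 14 and 4 of 13, where 17.2%, 21.1% and 23.6% of all genes tested were.

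In TIM4+CD206+ KCs only 1 gene of the 6 lists changed with tumour in the fit without the block. Apoc2, which encodes the cofactor of lipoprotein lipase and lies among the 14 tested of 16 other LXR target genes, rose by 1.64 ± 0.19 (SE), from 10.14 ± 0.20 to 11.78 ± 0.24 (SD, n = 3 each), with an adjusted p of 0.0028 (limma). The median of that list was 0.09. Of the other lists, 0 of 13 tested partner receptors of RXR, 0 of 5 tested genes of oxysterol and desmosterol metabolism, 0 of 20 genes of cholesterol uptake, storage and transport and 0 of 11 genes of the SREBP2 pathway were called, with medians of 0.02, −0.002, 0.10 and 0.07. Under the replicate block 1026 of all 13233 genes tested were called, 617 of them higher, and 3 more genes of the lists passed. All rose with tumour, Vdr, the vitamin D receptor gene, by 1.35 and Sqle, an enzyme gene of sterol synthesis, by 1.03. Msr1, a scavenger receptor gene, rose by 0.63. In this order, the adjusted p was 0.0073, 0.031 and 0.036 in limma.

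In TIM4+CD206high KCs, 2 of 11 genes of the SREBP2 pathway, which makes cholesterol and is driven by low sterol, rose with tumour, where 5.21% of all genes tested did: Sqle by 1.83 and Cyp51 by 1.14, both of which encode enzymes of sterol synthesis. The difference was above 0 for 10 of 11 genes of the list, with a median of 0.54 against 0.03 over all genes. Of 5 tested genes of oxysterol and desmosterol metabolism 1 rose, Sult2b1, whose enzyme sulphates sterols, by 1.28. Among 20 genes of cholesterol uptake, storage and transport, the lipoprotein receptor gene Vldlr rose by 1.56. Among 16 other LXR target genes Fasn, the fatty acid synthase gene, rose by 1.17 and Apoc4 fell by 1.30, and among 14 other receptors that pair with RXR, Vdr rose by 1.95, Nr1i2 by 1.32 and Rarg fell by 1.21. The medians of these 4 lists were 0.07, 0.28, 0.34 and 0.16.

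Several of these were low. Vldlr went from 2.93 to 4.50, Sult2b1 from 4.09 to 5.36 and Nr1i2 from 4.82 to 6.14 in the means of 3 samples. The values appear to be on a regularized log scale, which draws low values towards their mean. If so, such differences may be understated. The epithelial tumour markers rose in the same samples, by a median of 5.29 over 11 tested genes, and their part in these differences was not tested. Of the 9 called genes, Vdr, Sqle and Vldlr passed the threshold in every alternative in which they were tested and the others lost it in at least 1. Without tumour-free sample 2, 5 genes of the SREBP2 pathway and 6 other LXR target genes were called, where 3634 of 14561 genes tested were. Without any 1 of the tumour-bearing samples 1 and 0 were called, where 579 to 637 of all genes were.

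With Id3 deletion 4 of 16 other LXR target genes rose and 0 fell, where 3.08% of all genes tested rose and 3.37% fell. Scd2, a fatty acid desaturase gene, rose by 1.38, from 9.51 ± 0.11 to 10.89 ± 0.01 (SD, n = 3 and 2), Lpl, the lipoprotein lipase gene, by 0.55 and Mertk, a receptor for the uptake of dying cells, by 0.54. Cd5l, which encodes a protein secreted by macrophages and is also 1 of the 14 KC markers, rose by 0.25. Of 19 tested genes of cholesterol uptake, storage and transport 4 fell: Npc2, which exports cholesterol from lysosomes, by 0.55, Nceh1, a cholesteryl ester hydrolase, by 0.38, Msr1, a scavenger receptor, by 0.37 and Plin2, which coats lipid droplets, by 0.33. Among 12 tested partner receptors of RXR, Nr4a1 rose by 0.81 and Rara by 0.40, and of 11 genes of the SREBP2 pathway Fdft1, the squalene synthase gene, fell by 0.38. The medians of these 4 lists were 0.24, −0.09, 0.04 and −0.005, and of the genes of oxysterol and desmosterol metabolism 2 of 6 were tested and 0 called. Scd2 passed the threshold in every alternative and the others lost it in at least 1. Without either Clec4fCreId3f/f sample, where a lone sample stood against the controls, fewer genes of both lists were called. Without Id3f/f sample 3, 7 LXR target genes and 8 uptake genes were called, where 1850 of 12833 genes tested were.

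**Figure D4:**
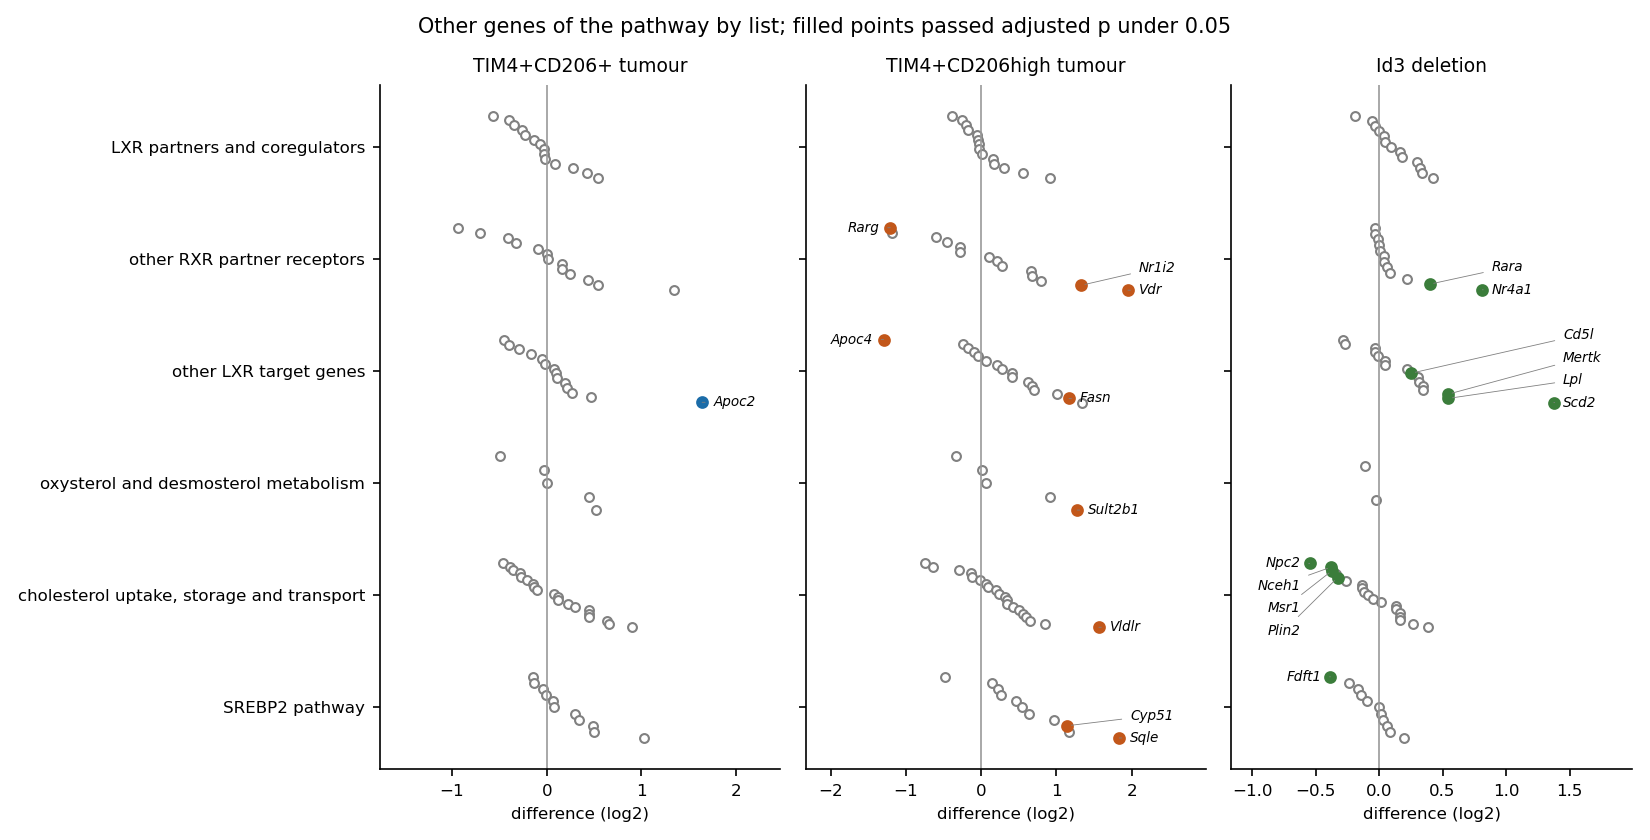
Difference on the log2 scale (x axis) of every tested gene in the 6 pathway lists, in the same 3 comparisons. Filled, named points have an adjusted p under 0.05 in limma, and open points do not. Apoc2 is the only filled point in TIM4+CD206+ KCs, and the x axes differ between panels.

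By likeness of pattern, measured as the root mean square difference of values centred on their table mean over all 17 samples, the genes closest to Nr1h3 among 12222 tested in all tables were Gm28043, a predicted gene that the annotation marks as overlapping another locus, Acvrl1, a receptor of the TGFβ family, and Ube2g2, a ubiquitin-conjugating enzyme gene. Each differed from Nr1h3 by 0.10 to 0.11 on the log2 scale, where the median over all genes was 0.35. Within the set, Rxra was the closest to Nr1h3, with a value of 0.21 and rank 901, and Apoe the most distant, with 1.197 and rank 12150.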

How the data were processed

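RNA-seq of 17 samples of sorted mouse KCs was analysed from 3 deposited tables with 25124 genes each. The authors aligned reads to mm10 with STAR 2.7.10a and counted with HTSeq, per the labels, while the study's methods also name GRCm39. DESeq2 is among the authors' tools. The deposited values are log2 values on a regularized log scale as far as their features show, although the authors headed the columns TPM. On that scale the changes of low genes may be understated. They were normalized across samples within each table. No per-sample depth is known from these values, so precision rests on the spread between samples.

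Groups were compared within each table with limma 3.58.1 (limma-trend, R 4.3.3, Benjamini-Hochberg adjustment over all genes tested, threshold 0.05, two-sided), keeping genes at or above the log2 of 10 in at least 3 samples, or 2 in the Id3 table. The fit was tested on simulated data with independent normal values. These held no GC trend, shared deviation of samples or sex difference, so the test does not cover such features. Differences are in log2 units, tumour-bearing minus tumour-free or Clec4fCreId3f/f minus Id3f/f. Levels per kilobase use transcript lengths of GENCODE M21, with transcripts that have a RefSeq entry preferred, then protein-coding ones, then the longest. Both GC content and length could be matched for 24497 genes. Alternatives were no filter and a stricter one (the log2 of 50), no mean-variance trend, median centring, quantile normalization, a replicate block and each sample left out. Removal of GC and length trends (splines with 5 degrees of freedom) was added after seeing the data. Samples of the same number deviated together in the TIM4+CD206+ table (correlations of deviations of 0.35, 0.56 and 0.15), which can be read as pairing. They did not in the TIM4+CD206high table (−0.05, −0.13 and −0.05) or the Id3 table (−0.07 and −0.10). The labels state no pairing between groups, so a reading as pairing rests on the same values that were tested. The main fits held no block in any table, and the fits with it are given as alternatives.

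The 10 genes, the pathway and the marker lists were chosen with earlier results of these data known. All 10 members were named with their values, at most the 3 genes of a pathway list with the largest absolute difference among those past the threshold, and the 3 genes most like Nr1h3. Cd5l, Plin2 and the genes called with the block alone, outside that rule, were named after their values were seen. Some genes of the pathway lists are not reported here and were left out of the counts.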

Additional observations from a re-analysis of the deposited data

How the results depend on the processing

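Under the alternatives, 363 of 410 member results kept their direction and their side of the threshold. With the replicate block, genes called in TIM4+CD206+ KCs went from 469 to 1026, and to 928 with GC and length trends also removed. In each of these, and after quantile normalization, 1 member in place of 0 was called, Rxra, at −0.74, −0.70 and −0.72. In the Id3 table, where the numbers did not pair the samples, the block gave 2089 genes in place of 827 and 5 members in place of 3, adding Rxra at 0.30 and Mylip at 0.65, the values without Id3f/f replicate 3, which has no partner there. It gave 1774 genes with trends also removed. The block changed no member's call in TIM4+CD206high KCs.

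Other settings moved the counts too. The stricter filter called 600 genes in place of 1053 in TIM4+CD206high KCs and no filter called 477 in place of 827 in the Id3 table. Quantile normalization called 1 member in TIM4+CD206high KCs, Abca1 at 1.24, and in the Id3 table called Nr1h3 at 0.31 and set Apoe to 0.00. For TIM4+CD206high KCs it, median centring and trend removal moved the median of all genes by −0.14, −0.16 and −0.15, and 56.2% and 57.2% of calls were higher after quantile normalization and trend removal, in place of 72.0%. In the Id3 table median centring gave 37.4% in place of 47.8%.

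Directions that reversed belonged to members that missed the threshold, and the cause was not tested. In TIM4+CD206+ KCs Apoc1 was at −0.060 after median centring and −0.21 with trends removed, and Mylip at 0.069, with and without the block. Trend removal gave −0.15 for Nr1h2, −0.012 for Abcg1 and −0.13 for Pltp in TIM4+CD206high KCs, with and without the block. In the Id3 table quantile normalization gave 0.0081 for Abca1 and 0.0024 for Pltp.

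Leaving out 1 sample at a time called 231 to 1022 genes and 0 to 2 members in TIM4+CD206+ KCs, with the higher values without tumour-free replicate 2. There Apoe ranged from −0.33 to 1.11, Mylip from −0.40 to 0.51 and Apoc1 from −0.18 to 0.24. In TIM4+CD206high KCs it called 579 to 3634 genes and 0 to 3 members, again highest without tumour-free replicate 2, and Nr1h2 ranged from −0.33 to 0.69, Mylip from −0.013 to 0.60 and Pltp from −0.086 to 0.38, negative without tumour-free replicate 3. In the Id3 table it called 17 to 1850 genes and 0 to 5 members, lowest without a Clec4fCreId3f/f sample, where the lone sample is assumed to vary like the controls, and highest without Id3f/f replicate 3. Nr1h2 ranged there from −0.11 to 0.012. The coregulators, of which 0 were called in any comparison, reached 1 in TIM4+CD206high KCs without tumour-free replicate 2 or 3 and 3 in the Id3 table with the stricter filter, with the block or without Id3f/f replicate 3.

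Depth per sample is unknown, each group holds 2 or 3 samples, and sex and genotype cannot be told apart in the Id3 experiment.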
